A study of Mus musculus with 6 samples.

Results

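The genes of the mitochondrial ribosomal proteins were followed from the embryonic to the postnatal retinal ganglion cell (RGC), the neuron whose axon forms the optic nerve. All rows whose symbol begins with Mrpl or Mrps and a digit were taken, which gave 77 of the 24060 genes in the count table. RNA was sequenced from RGCs of C57BL/6 mice at embryonic day 18 (E18, 3 samples, numbered 1, 3 and 4) and at postnatal day 5 (P5, 3 samples, numbered 6, 8 and 9). At both ages the retinas were dissociated with papain, macrophages were removed with antibodies and the RGCs were then held on dishes coated with antibodies against CD90 (Thy1), and no allele or treatment besides age is given. The labels do not say how many animals or litters a sample holds, so the p-values measure the spread between these samples, which may be partly technical. In the count table the name of the first E18 column holds the numbers 2 and 5 beside its own.

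Mitochondria keep a ribosome of their own, built of a small subunit that reads the messenger RNA and a large subunit that joins the amino acids. It translates the few messenger RNAs of the mitochondrial genome, which encode core subunits of the respiratory chain and of the ATP synthase, while all of its proteins are encoded in the nucleus, made in the cytosol and imported. Some of these proteins descend from bacterial ribosomal proteins and others are found only in mitochondrial ribosomes. RGCs depend strongly on mitochondria, and inherited defects of mitochondrial respiration or dynamics are known to cause their loss.

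The counted reads numbered 81213639 to 114512853 in a sample, of which 160675 to 218284, or 0.189% to 0.215%, fell on the 77 genes. The lowest count of any of them in any sample was 398 and the highest 7751. The 15 RGC markers summed to 7614 to 9006 CPM (counts scaled to a common library size by TMM) at E18 and to 8404 to 9507 CPM at P5. This sum hides changes in both directions. At an adjusted p under 0.05, which 43.4% of all tested genes passed, 4 of the 15 were higher at E18 (Isl1, Sncg, Gap43 and Ebf1). Another 6 were lower (Pou4f3, Thy1, Nefl, Nefh, Slc17a6 and Rbpms2). Photoreceptor, microglia and red blood cell markers summed to at most 11.98, 4.71 and 1.83 CPM. Markers of other cells moved with age or sample. Those of dividing cells summed to 430, 198 and 138 CPM in E18 replicates 1, 3 and 4 against 105 to 128 CPM at P5, with 10 of 14 genes higher at E18 and the others not past the threshold, and those of retinal progenitors to 288, 156 and 44.7 against 25.2 to 38.8 CPM, with 6 of 12 higher. Endothelial and pericyte markers summed to 72.8, 65.6 and 17.2 against 15.7 to 18.9 CPM, a sum made almost wholly of Kdr (69.3, 63.3 and 14.1 against 4.78 to 11.3 CPM), which was higher at E18, whereas Pecam1, Tek and Rgs5 were lower and the other 3 of the 7 tested did not pass. Amacrine markers summed to 1497 to 1709 against 1790 to 1998 CPM, a sum made mostly of Pax6 and Calb2, of which Calb2 was lower at E18. Of the 9 amacrine markers the 4 others that passed, Tfap2a, Tfap2b, Slc32a1 and Chat, were higher at E18, by way of replicates 1 and 3 (Tfap2b at 47.3, 120.02 and 1.63 against 1.01 to 1.56 CPM). These marker genes were chosen for naming by their values. The part of these cells in the differences between the ages was not tested, and fewer cells of a type and less RNA per cell cannot be told apart in such samples.

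The mitochondrial ribosomal protein genes differed little between the ages. Of the 77, all of which passed the filter on low counts, 4 were higher and 9 were lower at E18 at an adjusted p under 0.05 in edgeR's quasi-likelihood test with Benjamini-Hochberg adjustment over 16449 genes. These 13 genes are 16.9% of the members, whereas 43.4% of all tested genes passed the same threshold, 20.8% of them as higher and 22.5% as lower at E18. The other 64 members did not pass. Thus the share of members that passed was below that of all genes, and it stayed below it in each of the 12 alternative settings, also where P5 replicate 8 was left out and 26 members (33.8%) passed against 52.5% of all genes.

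The sizes of the differences were small as well. The log2 fold change of E18 over P5 ranged from -0.68 to 0.45 over the members, with a median of -0.11 against 0.0047 over all tested genes, and its median size regardless of sign was 0.154 against 0.392. For 62 members (80.5%) the whole 95% interval of the change lay within 1.5-fold in either direction, as it did for 34.1% of all genes. A fitted change of at least 1.5-fold was found for 2 members, Mrps31 and Mrpl41, which is 2.6% against 34.5% of all genes, and none reached 2-fold, as 17.8% of all genes did. The sign was negative for 54 members and positive for 23, so that more of them were nominally lower at E18. The samples of the ages did not overlap for 32 members (41.6%), 11 of them with every E18 sample above and 21 with every E18 sample below those of P5, whereas 55.9% of all genes had no overlap.

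**Figure D1:**
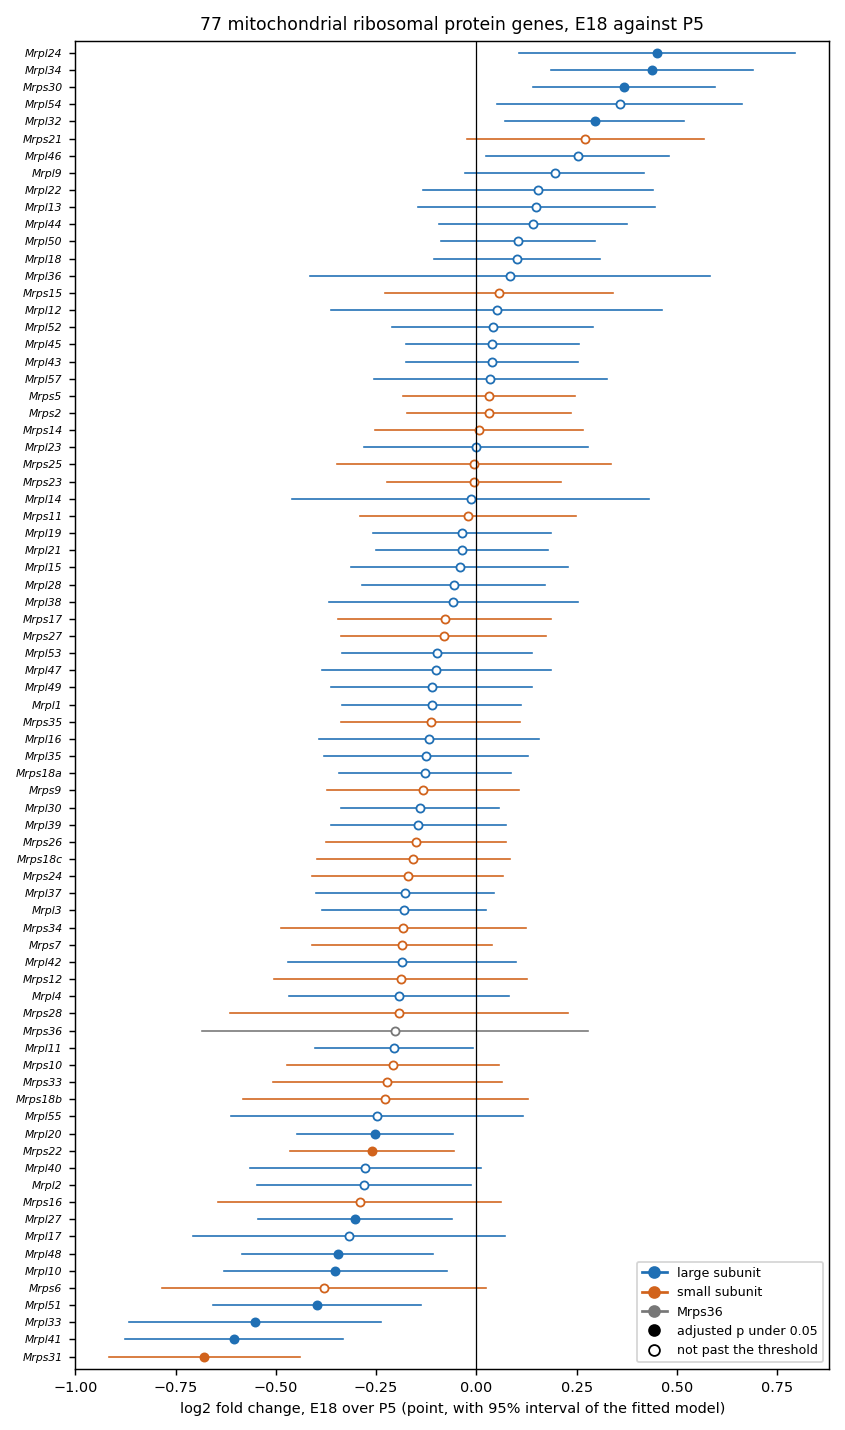
Log2 fold change of E18 over P5 for each of the 77 mitochondrial ribosomal protein genes, with 95% intervals from the fit, ordered by size coloured by subunit and with filled points for an adjusted p under 0.05. Most intervals include 0, and the points run from -0.68 for Mrps31 to 0.45 for Mrpl24.

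Mrps31, a protein of the head of the small subunit that has no bacterial counterpart, showed the largest difference. It measured 16.7, 18.7 and 16.0 CPM in E18 replicates 1, 3 and 4 and 27.0, 28.0 and 26.9 CPM in P5 replicates 6, 8 and 9. Every P5 sample was well above every E18 sample, and the level at E18 was 0.625 times that at P5 (log2 fold change -0.68, SE 0.10, adjusted p = 0.00157 in edgeR's quasi-likelihood test). The gene lies at chr8:22411361-22429665 on the plus strand (mm10), with no other gene over its exons.

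Mrpl41, a mitochondria-specific protein of the large subunit, measured 28.9, 31.6 and 31.6 CPM at E18 and 46.6, 39.9 and 52.8 CPM at P5. The E18 samples lay close together and below the more widely spread P5 samples (0.658 times, log2 fold change -0.60, SE 0.12, adjusted p = 0.00465 in edgeR's quasi-likelihood test). It lies at chr2:24974117-24975098 on the minus strand.

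Mrpl33, one of the smallest proteins of the large subunit and a relative of bacterial L33, measured 15.8, 13.8 and 13.97 CPM at E18 and 24.8, 18.5 and 20.2 CPM at P5. Again no sample overlapped, with P5 replicate 6 the highest (log2 fold change -0.55, SE 0.14, adjusted p = 0.0127 in edgeR's quasi-likelihood test). Without E18 replicate 3 the adjusted p was 0.0576, and in the other 11 alternatives the gene passed.

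Mrpl34, the relative of bacterial L34 in the large subunit, was the most stable of the genes that were higher at E18. It measured 29.9, 31.1 and 31.7 CPM at E18 and 25.1, 20.2 and 22.7 CPM at P5, a level 1.36 times higher (log2 fold change 0.44, SE 0.11, adjusted p = 0.0133 in edgeR's quasi-likelihood test). Mrps31, Mrpl41 and Mrpl34 passed the threshold in all 12 alternatives, with adjusted p-values of at most 0.0106, 0.0234 and 0.0498. These 3 genes and Mrpl33 also passed without E18 replicate 1, the sample with the highest sums of dividing cell and progenitor markers. E18 replicate 3, without which Mrpl33 did not pass, had the next highest of these sums. The part of such cells in the calls was not tested.

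The other 3 genes that were higher at E18 also belong to the large subunit. Mrpl24, a protein near the exit of the peptide tunnel, measured 26.1, 29.4 and 29.4 CPM at E18 and 23.4, 16.0 and 22.4 CPM at P5, where replicate 8 was far below the others (log2 fold change 0.45, SE 0.15, adjusted p = 0.0402 in edgeR's quasi-likelihood test). Of its exonic bases, 26.3% are also covered by Rrnad1 on the opposite strand, and since the sources do not state whether counting used the strand, reads of the pair cannot be told apart. Mrps30, which carries a small subunit name and yet sits in the large subunit, measured 37.4, 39.2 and 35.0 CPM against 27.8, 31.1 and 27.3 CPM (log2 fold change 0.37, SE 0.10, adjusted p = 0.0178). Mrpl32, a precursor that is cut by the mitochondrial m-AAA protease before assembly, measured 27.1, 29.3 and 25.7 CPM against 22.3, 22.0 and 22.3 CPM (log2 fold change 0.29, SE 0.098, adjusted p = 0.0389). The samples of the ages did not overlap for any of these genes.

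Among the remaining genes that were lower at E18, Mrpl51, Mrpl48 and Mrps22 belong to the mitochondria-specific proteins. Mrpl51 measured 28.3, 28.0 and 28.8 CPM at E18 and 39.3, 31.8 and 40.4 CPM at P5 (log2 fold change -0.40, SE 0.11, adjusted p = 0.0224 in edgeR's quasi-likelihood test). Mrpl48, which lies in the central protuberance of the large subunit, measured 28.1, 30.7 and 30.2 CPM against 40.4, 33.7 and 38.4 CPM (log2 fold change -0.35, SE 0.10, adjusted p = 0.0270). Mrps22, a small subunit protein, measured 29.2, 30.5 and 28.9 CPM against 34.2, 36.6 and 34.9 CPM (log2 fold change -0.26, SE 0.090, adjusted p = 0.0439). For Mrpl51 and Mrpl48 the P5 sample nearest to E18 was replicate 8, and for Mrps22 it was replicate 6.

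Mrpl10, Mrpl27 and Mrpl20 are relatives of bacterial proteins of the large subunit. Mrpl10, which forms the base of the stalk where translation factors bind, measured 32.0, 29.95 and 32.3 CPM at E18 and 39.9, 34.1 and 45.7 CPM at P5 (log2 fold change -0.35, SE 0.12, adjusted p = 0.0449 in edgeR's quasi-likelihood test). A transcript on the opposite strand, Gm11574, covers 14.1% of its exonic bases. Mrpl27, whose bacterial counterpart reaches towards the peptidyl transferase centre, measured 20.4, 18.9 and 19.1 CPM against 24.6, 21.9 and 25.2 CPM (log2 fold change -0.30, SE 0.11, adjusted p = 0.0475). Mrpl20, named after its value was seen, measured 44.6, 43.9 and 44.7 CPM against 55.1, 50.9 and 51.9 CPM, so that the smallest of the 13 differences came with E18 samples within 1 CPM of each other (log2 fold change -0.25, SE 0.085, adjusted p = 0.0407).

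The calls of these last 9 genes depended on the samples used, and those of Mrpl32, Mrpl20, Mrps22, Mrpl27 and Mrpl10 also on the processing. With all samples kept, Mrpl32, Mrpl20, Mrps22 and Mrpl27 did not pass without the filter on low counts. Mrps22 and Mrpl27 did not pass in the likelihood ratio test, and Mrpl27 and Mrpl10 did not with upper-quartile scaling. With each sample left out in turn, Mrpl24 passed only without P5 replicate 6 or 8, Mrps30 only without E18 replicate 4 or P5 replicate 8, and the other 7 only without P5 replicate 8. The largest adjusted p-values of the 9 genes over the alternatives lay between 0.0826 and 0.165, and the sign of none of the 13 changed.

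**Figure D2:**
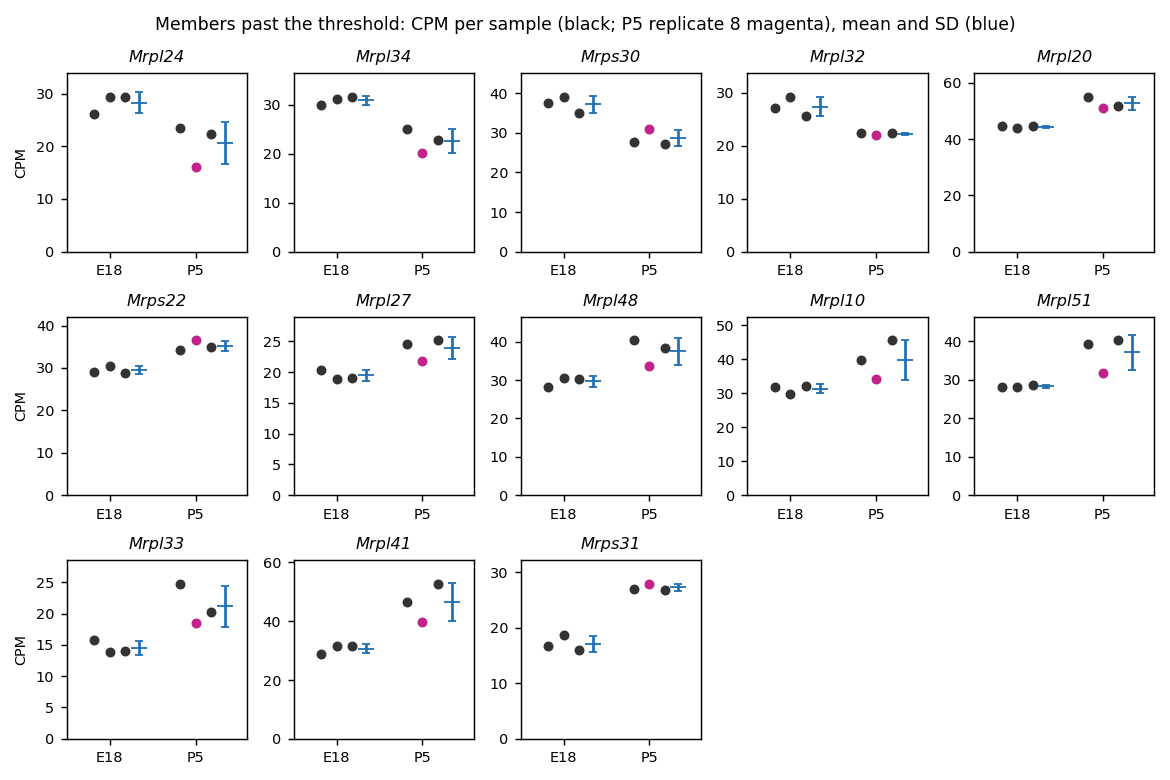
CPM of the 13 mitochondrial ribosomal protein genes past the threshold in each of the 3 E18 and 3 P5 samples (points, P5 replicate 8 in magenta), with the mean and SD of each age in blue and axes that start at 0. In none of the 13 do the samples of the ages overlap, and P5 replicate 8 is the lowest of its age in most panels.

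Some of the promoters of these genes hold short motifs of factors known for genes of mitochondrial biogenesis and translation, and most lack each of them. Promoters from the RefSeq set on GRCm38.p6 (mm10), each with 250 bases before and 50 bases after the gene start, were matched for 68 members by symbol. The core of the sites of ETS factors such as GABP and Elk-1 was searched as CCGGAAG on both strands. The windows below are those of called genes that hold it, and they are shown since the factors that bind such cores are the ones whose own levels are described further on. Each runs 5′ to 3′ on the strand of the gene, with the ETS core in capitals.
Mrpl33: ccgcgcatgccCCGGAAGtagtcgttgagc
Mrpl51: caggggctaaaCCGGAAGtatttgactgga
Mrpl48: ggttttaaaaaCTTCCGGaaccaagatgct
Mrpl27: gtccgcaagacCCGGAAGtagatctatccc
Mrps22: aacctctcgagCCGGAAGttgctctatcga
Mrpl34: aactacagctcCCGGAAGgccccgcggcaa
They lie at chr5:31613937-31613966 (plus strand), chr6:125192099-125192128 (plus), chr7:100583146-100583175 (minus), chr11:94653725-94653754 (plus), chr9:98601672-98601701 (minus) and chr8:71464878-71464907 (plus), in that order. The core begins within 90 bases before the annotated start in all 6. In Mrpl33 it spans that start, and in Mrpl48 it is read on the opposite strand. In Mrpl33 a second motif in lower case, the NRF1 core GCGCATGC, ends just before the ETS core.

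The ETS core was held by 25 of the 68 members with a promoter (36.8%), against 17.1% of the 11978 tested genes with a promoter and 9.93% of all 27025 genes in the set. The YY1 motif AAGATGGC, whose first letters can overlap the last letters of the ETS core, was held by 12 members (17.6%) against 4.53% of tested genes, and the NRF1 core GCGCATGC by 8 (11.8%) against 5.39%. The TATA box letters TATAAA were held by 5 members (7.35%) against 9.38%. The shares of members with the ETS, YY1 and NRF1 letters were above those of tested genes at large, as a description without a test. The ETS core was held by 40.6% of the cytosolic ribosomal protein genes and 24.2% of the nuclear genes of the respiratory complexes and the ATP synthase with a promoter, the NRF1 core by 4.69% and 15.2% and the YY1 motif by 9.38% and 13.6%, so that the members did not have the highest share of ETS or NRF1 letters among these 3 sets. The promoters of tested genes had a median GC content of 60.0% against 58.5% for the members. Among the 13 called genes 6 held the ETS core (46.2%), 5 of the 9 that were lower and 1 of the 4 that were higher at E18, and among the 55 others with a promoter 19 held it (34.5%). A gene was counted where any of its promoters matched, and some genes have several. Per promoter the shares were 37.5% of 16 for the called genes and 32.8% of 58 for the others. Mrpl32 held 4 matches of the NRF1 core, of which those beginning at -85 and -87 from the gene start overlap, as the same stretch read on both strands. Mrpl10 held 1 that is read on the opposite strand. Such matches describe the letters in this window and no binding was measured.

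The members that were not called included those with the highest mean levels. The highest mean level of all belonged to Mrpl50, a large subunit protein, with 71.7, 69.6 and 73.3 CPM at E18 and 66.8, 69.0 and 62.9 CPM at P5, samples that just failed to overlap (log2 fold change 0.10, SE 0.084). Mrps5, the relative of bacterial S5 in the small subunit, measured 48.2, 57.3 and 55.6 CPM against 52.6, 52.5 and 51.7 CPM, with the P5 samples inside the range of E18 (log2 fold change 0.03, 95% interval -0.18 to 0.25). Mrpl11, near the stalk, measured 47.2, 50.7 and 48.2 CPM against 54.2, 54.8 and 58.8 CPM, and its lower level at E18 did not pass (log2 fold change -0.21, adjusted p = 0.0836 in edgeR's quasi-likelihood test). These most abundant members thus differed by little.

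At the other end of the range, Mrps28 measured 5.41, 4.77 and 4.83 CPM at E18 and 4.47, 6.40 and 6.22 CPM at P5, and Mrpl14 measured 8.58, 7.77 and 9.07 CPM against 9.46, 6.14 and 9.94 CPM. Both overlapped between the ages (log2 fold changes of -0.19 and -0.01). Mrps36, now known as a component of the 2-oxoglutarate dehydrogenase complex rather than of the ribosome and therefore counted in neither subunit here, measured 8.63, 9.08 and 9.05 CPM against 12.6, 6.90 and 11.1 CPM. Its P5 samples lay on either side of all E18 samples (log2 fold change -0.20, SE 0.21), with replicate 8 the low one.

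The 3 paralogues Mrps18a, Mrps18b and Mrps18c, of which Mrps18a sits in the large subunit and the others in the small one, were each nominally lower at E18 without passing the threshold. Their log2 fold changes were -0.13, -0.23 and -0.16, with adjusted p-values of 0.298, 0.266 and 0.256 in edgeR's quasi-likelihood test. Only Mrps18a had no overlap between the ages, with 24.9, 23.5 and 24.1 CPM at E18 and 25.8, 25.9 and 27.3 CPM at P5. Exons of other genes cover 30.5% of the exonic bases of Mrps18b and 23.2% of those of Mrps18c.

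Mrps12, the protein of the decoding centre, measured 12.8, 11.3 and 13.3 CPM at E18 and 13.2, 12.8 and 16.4 CPM at P5, which overlapped (log2 fold change -0.19, SE 0.14). Mrpl12, which forms the flexible stalk of the large subunit, had the widest spread of any member at E18, with 32.5, 18.9 and 24.1 CPM against 23.6, 24.3 and 24.7 CPM. Its log2 fold change was 0.05 with an SE of 0.18, and without E18 replicate 1, the high sample, it was -0.18. Of the 4 members with an adjusted p between 0.05 and 0.1, Mrpl54 and Mrpl46 were nominally higher at E18 (log2 fold changes of 0.36 and 0.25) and Mrpl2 and Mrpl11 nominally lower (-0.28 and -0.21). Mrpl54, Mrpl46 and Mrpl2 are named after their values were seen, and each passed in 1 or 2 of the alternatives.

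When set against transcript length, the members spanned a wide range of levels. Lengths were those of the GENCODE transcripts linked to a member's RefSeq accession, as a median where there were several. For the 75 members with such a length, the mean level ran from 3.19 CPM per kilobase for Mrpl17 to 63.5 CPM per kilobase for Mrpl20, with Mrpl41 at 49.7, Mrpl34 at 44.1, Mrpl33 at 37.3 and Mrps31 at 14.7. Of the 4 most stable differences, 3 thus concerned genes with high levels per length. Mrpl17 was chosen for naming by this value. The correlation of the log2 fold change with transcript length across genes was near 0 (Spearman's rho = 0.0107, n = 75, genes measured in the same libraries).

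In both subunits the share of genes past the threshold was below the 43.4% of all tested genes, and the difference between the subunits was not tested for these counts. Of the 50 large subunit genes 11 passed (22%), 4 higher and 7 lower at E18, and the median log2 fold change was -0.08. Of the 26 small subunit genes 2 passed (7.69%), Mrps31 and Mrps22, both lower, and the median was -0.15, with 21 of the 26 negative against 32 of the 50. All 10 mitochondria-specific proteins of the small subunit had a negative log2 fold change, from -0.68 to -0.0058, of which 2 passed. None of its 16 relatives of bacterial proteins passed in edgeR's quasi-likelihood test or had an unadjusted p under 0.05. In the large subunit 7 of 30 relatives of bacterial proteins and 4 of 20 mitochondria-specific ones passed, which is 23.3% and 20%. Mrps18a and Mrps18b are counted here as mitochondria-specific, although their paralogue Mrps18c is counted as a relative of a bacterial protein.

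The summed level of the 26 small subunit genes was 558, 574 and 571 CPM in the E18 samples and 624, 581 and 630 CPM in the P5 samples. All E18 samples were below all P5 samples, by 44.4 CPM or to 92.8% of the P5 mean (two-sided exact permutation test, p = 0.1, the smallest that 3 against 3 samples allow). The 50 large subunit genes summed to 1362, 1377 and 1376 CPM at E18 and to 1469, 1349 and 1470 CPM at P5, where replicate 8 lay below E18 and the others above (exact p = 0.4). The ratio of the large to the small subunit sum was 2.399 to 2.442 at E18 and 2.322 to 2.354 at P5, again without overlap (exact p = 0.1). Over all 77 members the sums were 1948 ± 16.9 CPM at E18 and 2051 ± 99.6 CPM at P5 (SD, n = 3 each), and P5 replicate 8 lay inside the E18 range (exact p = 0.3).

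**Figure D3:**
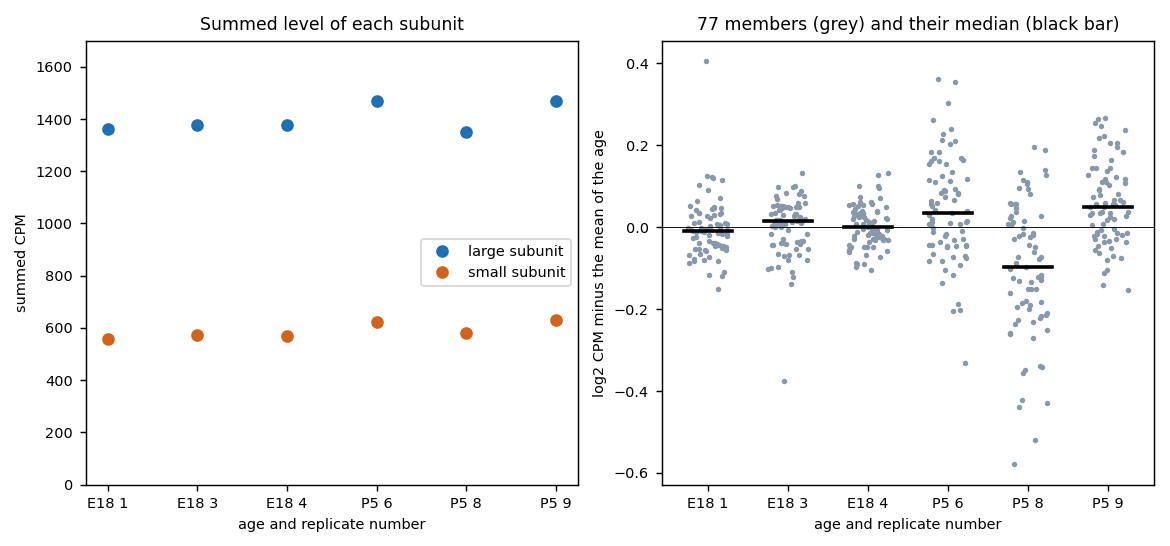
Left, summed CPM of the 50 large subunit genes and of the 26 small subunit genes in each of the 6 samples, on an axis from 0, and right, the log2 CPM of each of the 77 members minus the mean of its age (grey points) with the median of each sample (black bars). The small subunit sums lie at 558 to 574 CPM at E18 and at 581 to 630 CPM at P5, and P5 replicate 8 has the lowest large subunit sum, 1349 CPM, and the lowest median deviation, -0.098.

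The P5 samples were less alike than the E18 samples. The median SD of a member's log2 level was 0.0555 at E18 and 0.126 at P5, against 0.116 and 0.213 over all tested genes, and 66 of the 77 members were more spread at P5. P5 replicate 8 was the lowest of its age in 48 members (62.3%) and in 38.6% of all tested genes. Members with transcripts of up to 1226 bases, the median, were lower in it than in the other P5 samples by a median log2 difference of -0.20 (38 genes), and longer ones by -0.05 (37 genes). Across the 75 members with a length, the correlation of this difference with length was weak (Spearman's rho = 0.167). The same correlation for E18 replicate 3 against the other E18 samples was 0.282. With P5 replicate 8 left out, 21 members were lower and 5 higher at E18, the 13 genes above among them. The part of transcript length or RNA quality in this sample was not tested.

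The proteins of the cytosolic ribosome moved otherwise. Of 83 tested genes of cytosolic ribosomal proteins, 73 passed the threshold (88%, against 43.4% of all tested genes). Of these 72 were higher at E18, and the median log2 fold change of the set was 0.55. The exception, Rpl22l1, was lower and is named after its value was seen. Of 81 tested nuclear genes of the respiratory complexes and the ATP synthase, the machinery to which the mitochondrial ribosome supplies the other subunits, 46 passed (56.8%), 44 of them lower at E18, and the median was -0.31. The 2 that were higher, Atp5sl and Ndufa4l2, are also named after their values were seen. This set was taken by symbol, so its genes may not all encode subunits. Ndufa4l2 measured 8.16, 1.21 and 0.72 CPM in E18 replicates 1, 3 and 4 against 0.52 to 0.64 CPM at P5. Its difference thus came mostly from E18 replicate 1. The members lay between these sets, with a median of -0.11 and calls in both directions. With each sample left out in turn, 66 to 74 cytosolic ribosomal protein genes and 19 to 68 respiratory genes passed.

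The ratio of the members' summed CPM to that of the cytosolic ribosomal protein genes, a separate set, was 10.1% to 10.2% at E18 and 13.83% to 18.05% at P5. Their ratio to the summed CPM of the respiratory genes, also a separate set, was 27.3% to 28.3% at E18 and 23.2% to 24.7% at P5. Neither pair of ranges overlapped (exact permutation test, p = 0.1 for each, the smallest possible). The cytosolic sum was 19134 to 19319 CPM at E18 and 11699 to 14003 CPM at P5, and the respiratory sum was 6816 to 7175 CPM at E18 and 7842 to 9094 CPM at P5.

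**Figure D4:**
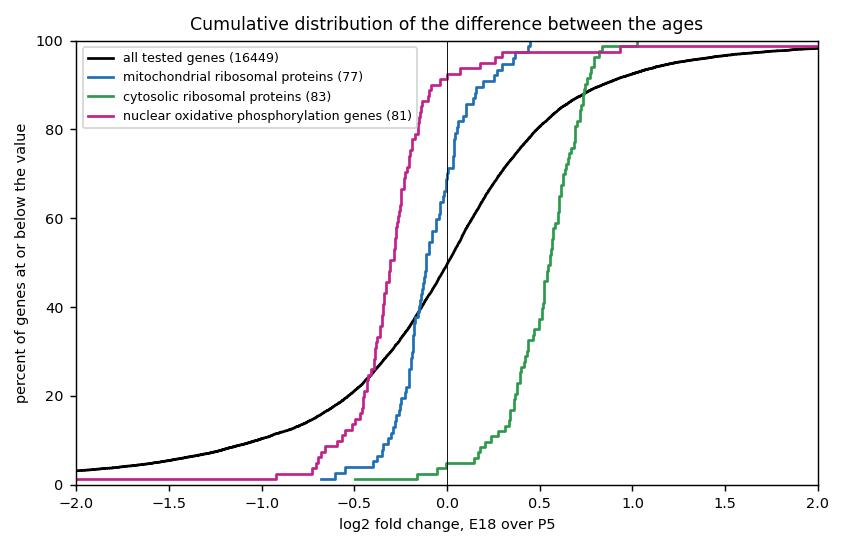
Cumulative percent of genes at or below each log2 fold change of E18 over P5, for all 16449 tested genes, the 77 mitochondrial and 83 cytosolic ribosomal protein genes and 81 nuclear oxidative phosphorylation genes, with the axis limited to -2 to 2. The lines of the gene groups pass 50% near their medians of -0.11, 0.55 and -0.31, and that of the mitochondrial ribosome rises over a narrow range around 0.

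Subunits of the mitochondrial ribosome that carry other symbols stayed near level too. Of 6 such genes (Dap3, Ptcd3, Aurkaip1, Chchd1, Ict1 and Gadd45gip1), none passed in edgeR's quasi-likelihood test, against 43.4% of all tested genes. An unadjusted p under 0.05 was found for 1 gene, and the median log2 fold change was 0.07. That gene was Ptcd3, named with its values after they were seen, with 80.8, 88.0 and 78.1 CPM at E18 and 76.5, 65.4 and 67.6 CPM at P5, so that all E18 samples were above (log2 fold change 0.23, adjusted p = 0.0862 in edgeR's quasi-likelihood test).

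Factors that assemble the ribosome passed in 3 of 25 cases (12%), a share below the 43.4% of all tested genes. Mterfd2, which guides a methyltransferase to the ribosomal RNA, measured 28.2, 29.9 and 28.2 CPM at E18 and 19.4, 22.5 and 18.7 CPM at P5 (log2 fold change 0.51, SE 0.11, adjusted p = 0.00629 in edgeR's quasi-likelihood test). Mettl17, a methyltransferase-like protein of small subunit assembly, measured 42.1, 43.9 and 43.3 CPM against 30.9, 31.0 and 28.9 CPM (log2 fold change 0.50, SE 0.089, adjusted p = 0.00275). Both were clearly higher at E18 in every sample. Mrm1, a methyltransferase of the large ribosomal RNA, was lower, with 10.1, 8.97 and 11.3 CPM against 16.7, 10.7 and 19.7 CPM, samples that overlapped (log2 fold change -0.64, adjusted p = 0.0407).

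Translation factors of the mitochondrion passed in 3 of 15 cases (20%), again below the 43.4% of all tested genes. The elongation factors Gfm1, which moves the ribosome along, and Tsfm, which recharges the factor that delivers transfer RNA, were lower at E18. Gfm1 measured 38.6, 42.3 and 37.0 CPM against 49.8, 54.3 and 56.5 CPM at P5 (log2 fold change -0.45, SE 0.097, adjusted p = 0.00651 in edgeR's quasi-likelihood test), and Tsfm 10.1, 9.30 and 11.2 against 12.6, 13.96 and 14.8 CPM (-0.44, adjusted p = 0.0240). The recycling factor Mrrf, which frees the ribosome after termination, was higher, with 21.2, 22.6 and 23.0 CPM against 18.2, 11.46 and 16.3 CPM (0.53, adjusted p = 0.0303).

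Of 20 genes that charge mitochondrial transfer RNAs, 4 passed (20%, against 43.4% of all tested genes), all lower at E18. Iars2, the isoleucyl synthetase, measured 56.5, 55.6 and 56.8 CPM at E18 and 81.6, 85.2 and 96.3 CPM at P5 (log2 fold change -0.65, SE 0.093, adjusted p = 0.00119 in edgeR's quasi-likelihood test). Qrsl1, a subunit of the enzyme that makes glutaminyl transfer RNA, measured 11.7, 11.03 and 11.3 CPM against 17.3, 17.0 and 19.0 CPM (-0.66, SE 0.11, adjusted p = 0.00230). Nars2 and Mars2 were lower as well (-0.42 and -0.37) and are named after their values were seen. The median over the list was -0.04, so that the calls came from these few genes.

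Of 14 genes for the transcription and replication of mitochondrial DNA, 3 passed (21.4%, against 43.4% of all tested genes). Peo1, the Twinkle helicase at the replication fork, measured 21.9, 22.8 and 21.9 CPM at E18 and 10.4, 14.3 and 10.3 CPM at P5, 1.89 times higher (log2 fold change 0.92, SE 0.15, adjusted p = 0.00174 in edgeR's quasi-likelihood test). The Twinkle gene, annotated as Twnk, covers 33.4% of the exonic bases of the member Mrpl43 on the opposite strand, so their counts may share reads. Tefm, the elongation factor of mitochondrial transcription, was lower, with 5.37, 5.72 and 5.81 CPM against 10.4, 9.31 and 8.84 CPM (-0.76, SE 0.14, adjusted p = 0.00306), and so was Pnpt1, an RNA-degrading enzyme (-0.33, adjusted p = 0.0221). Tfam, the packaging and transcription factor of mitochondrial DNA, did not pass, with 46.8, 46.1 and 45.8 CPM against 39.1, 48.3 and 37.6 CPM (0.14, adjusted p = 0.326). Transcripts of the mitochondrial genome itself were not analysed here.

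Of 13 regulators of mitochondrial biogenesis 7 passed (53.8%, near the 43.4% of all tested genes), 5 higher and 2 lower at E18. The coactivator Ppargc1a, known for driving mitochondrial biogenesis, measured 6.37, 5.46 and 6.01 CPM at E18 and 10.6, 11.965 and 14.7 CPM at P5 (log2 fold change -1.07, SE 0.16, adjusted p = 0.00137 in edgeR's quasi-likelihood test). Its relative Ppargc1b was lower as well, at 1.58, 1.12 and 1.53 CPM against 1.92, 3.05 and 4.42 CPM (-1.16, SE 0.32, adjusted p = 0.0188). Both coactivators were below their P5 levels in every E18 sample.

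The listed factors that bind the ETS and NRF1 motifs above were higher at E18 or not called. Elk1, an ETS factor that acts with serum response factor, measured 35.5, 37.1 and 36.2 CPM at E18 and 24.1, 26.1 and 18.9 CPM at P5 (log2 fold change 0.65, SE 0.13, adjusted p = 0.00466 in edgeR's quasi-likelihood test). Nrf1, the nuclear respiratory factor, measured 45.2, 49.7 and 45.8 CPM against 30.4, 37.7 and 23.1 CPM (0.62, SE 0.16, adjusted p = 0.0158). Gabpa, the DNA-binding subunit of GABP, overlapped between the ages, with 58.0, 59.4 and 49.3 CPM against 49.9, 54.0 and 41.0 CPM (0.20, adjusted p = 0.236). Elk4, Myc and Mycn were also higher at E18 (log2 fold changes of 0.60, 0.62 and 0.43) and are named after their values were seen. Of the genes of these lists, Mterfd2, Mettl17, Gfm1, Iars2, Qrsl1, Peo1, Tefm, Ppargc1a, Elk1 and Elk4 passed in all 12 alternatives.

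**Figure D5:**
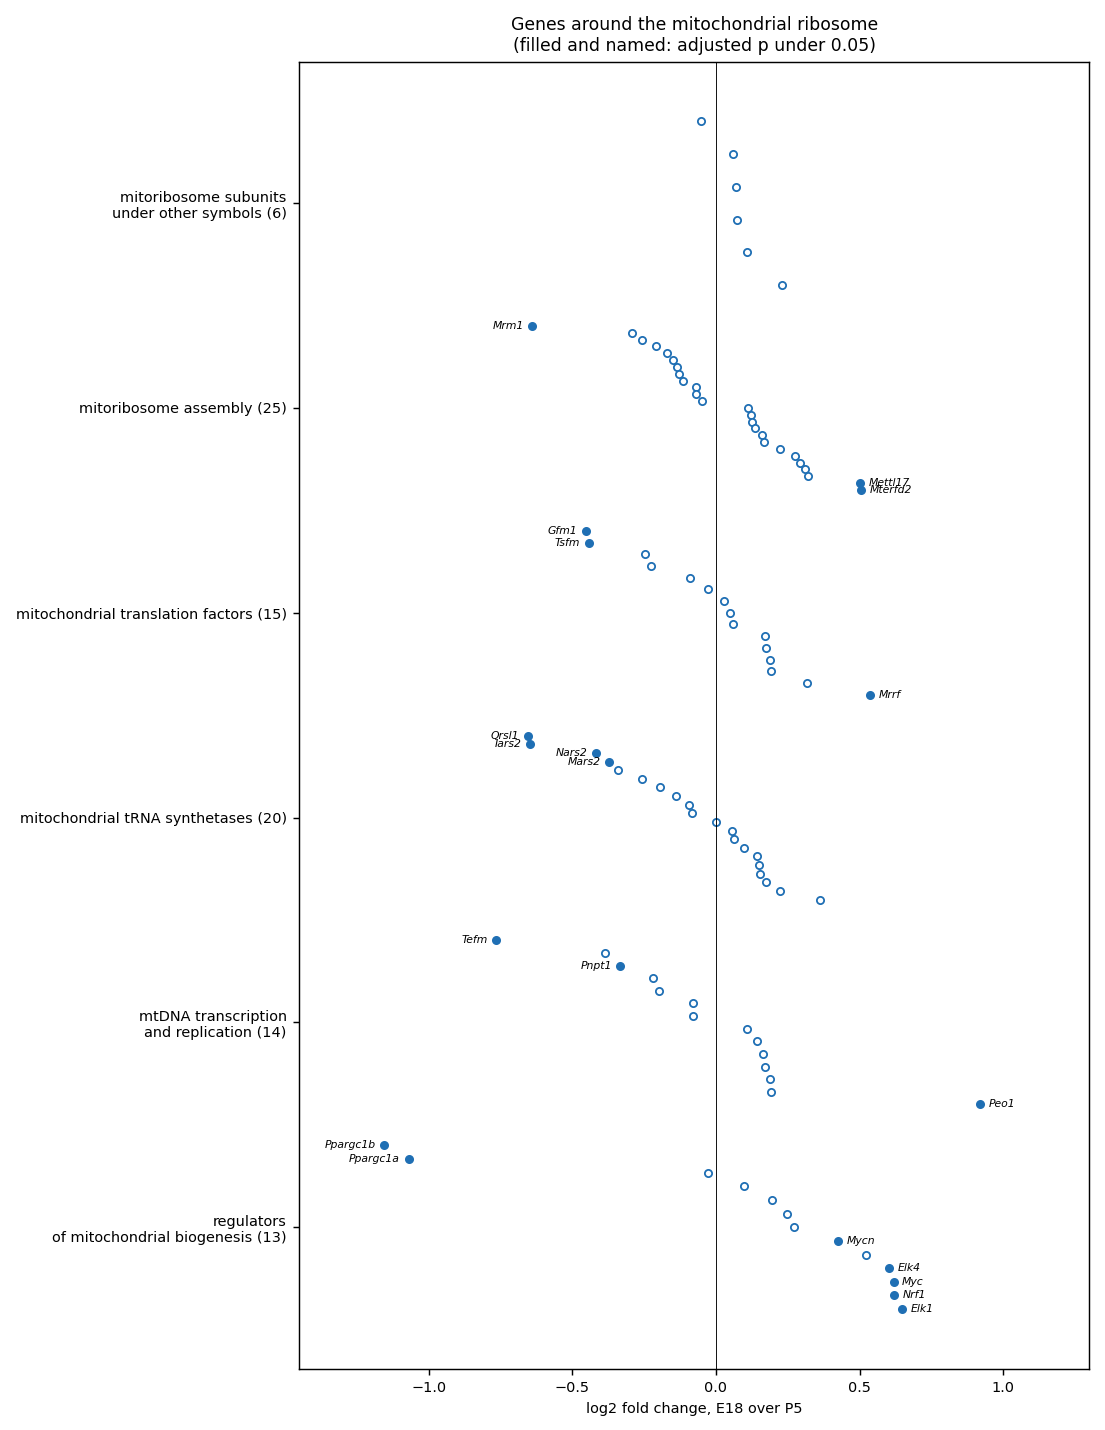
Log2 fold change of E18 over P5 for the genes of 6 lists around the mitochondrial ribosome, 1 point per gene, with those past an adjusted p of 0.05 filled and named. The extremes are Ppargc1b at -1.16 and Peo1 at 0.92, and the list of regulators holds the most filled points, 7 of 13.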

How the data were processed

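The authors sequenced 100-base reads after ribosomal RNA depletion (the labels name polyA RNA), aligned them with STAR to the mouse genome mm10 and used HT-seq and the RefSeq annotation for the raw counts they deposited. The use of strand and the treatment of multiply mapped reads are not given in the sources used here, and 32 members share exonic bases with another gene, 17 of them at least 10%. The deposited normalized counts and per-sample comparison columns (9) and the authors' fold changes, p-values and false discovery rates (3) were not used.

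Counts were scaled by TMM, filtered with filterByExpr (16449 genes left) and compared without covariates by edgeR's quasi-likelihood test (edgeR 4.0.16, R 4.3.3), calling adjusted p-values (Benjamini-Hochberg) under 0.05. CPM uses the TMM library sizes. Intervals and SEs are those of the fit. The fit was tested on simulated counts. Replicates differed by more than sampling noise (chi-square of 5.34 to 35.2 per degree of freedom over members), so the spread between samples sets the precision. Alternatives were DESeq2 1.42.0, the likelihood ratio test, RLE and upper-quartile scaling, other filters and the omission of each sample.

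Members, lists and subunit classes were chosen with earlier results of these data known. Genes named are the called members without overlap (up to 8 in each direction), the 3 highest and 3 lowest, the Mrps18 paralogues, Mrps30, Mrps36, Mrps12 and Mrpl12, and in each other list the 2 largest rises and falls, with Elk1, Nrf1, Gabpa, Ppargc1a and Tfam. The NRF1 motif was shortened to 8 letters after the data were seen. Positions and transcript lengths are those of GENCODE M21, and promoters those of RefSeq.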

Additional observations from a re-analysis of the deposited data

How the results depend on the processing

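With each sample left out in turn, 3 to 26 members passed (13 with all samples), 1 to 5 as higher and 2 to 21 as lower at E18, and 11 to 34 genes of the 6 other lists passed against 20. In each case the lowest number came without E18 replicate 3 (shared with E18 replicate 1 for those higher), and the highest without P5 replicate 8. Fewer samples leave fewer degrees of freedom. The median log2 fold change of the members ranged from -0.16 without P5 replicate 8 to -0.071 without P5 replicate 9. DESeq2, the likelihood ratio test, the other scalings and the other filters gave 9 to 15 members. The summed levels of both subunits were lower at E18 under every alternative run for them, with differences of -95.2 to -33.5 CPM for the large and of -58.7 to -33.5 CPM for the small subunit. Among the members named by the rule above, the sign turned for Mrps5 without E18 replicate 3 (-0.0099 to 0.10 over the omissions). For Mrpl14 it turned without E18 replicate 3 (0.053), P5 replicate 6 (0.053) or P5 replicate 9 (0.11, against -0.22 without P5 replicate 8). For Mrpl12 it turned without E18 replicate 1 (-0.18, against 0.23 without E18 replicate 3). None of these genes passed the threshold with all samples, and the cause was not tested. Turns of sign in the other members, some with changes near 0, are not listed here.

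No paired analysis was possible because the ages share no replicate number. With 3 samples per age an exact test of a sum cannot go below p = 0.1. Members that overlap other genes, and Mrpl23, Mrpl48 and Mrps36, after which 5 processed pseudogenes are named, have uncertain counts.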
